A study of Oryctolagus cuniculus with 12 samples.

Results

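Axon guidance ligands and receptors were followed in rabbit conjunctiva after glaucoma filtration surgery. The genes were taken by name and comprised the semaphorins (SEMA), plexins (PLXN) and neuropilin NRP1, the ephrins (EFN) and Eph receptors (EPH), the slits and their ROBO receptors, and the netrins (NTN, NTNG) with DCC and the UNC5 receptors. Of 69 genes with such a name, 62 had at least 10 counts in 3 libraries, and these 62 of the 20566 genes in the table are described below. All 62 were among the 14835 genes tested, 33 of them ligands and 27 receptors. The other two, UNC50 and UNC5CL, matched the pattern of letters only. UNC50 is a protein of the inner nuclear membrane unrelated to guidance receptors, and UNC5CL is an UNC5C-like protein with a death domain.

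The study compared trabeculectomy (TL), in which aqueous humor is led through a scleral flap to a bleb under the conjunctiva, with unoperated eyes. The animals were female Japanese White rabbits, 12 to 14 weeks old, of no stated genotype. The groups TL-3h, TL-3d and TL-14d each held 3 libraries of right-eye conjunctiva with the bleb, taken 3 hours, 3 days or 14 days after the operation, and the control group (cont) held 3 libraries of left-eye conjunctiva. Right eyes had also received mitomycin C, which crosslinks DNA and restrains scarring. After the operation they received a conjunctival injection of the steroid betamethasone and an antibiotic ointment, so that surgery and drugs cannot be told apart. The left eyes belonged to operated animals, and neither the animal nor the time of each control sample is given. The sources do not say which libraries came from which animals, and the p-values therefore measure the spread between these libraries.

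Guidance ligands steer growing axons by attraction or repulsion, but the same proteins act outside the nervous system on epithelial sheets, vessels, and immune cells. Semaphorins signal through plexins, the secreted class 3 members usually with a neuropilin as coreceptor. Ephrins and Eph receptors are both bound to membranes and signal where cells touch. Slits bind ROBO receptors, and netrin-1 binds DCC and the UNC5 family. In the cornea and conjunctiva, such molecules are known from sensory nerve growth, from the repair of the epithelium, and from the growth of vessels.

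The total count per library lay between 27111276 and 38591374, and the floor of 3 counts, up to which a listed 0 could reach with 95% confidence, corresponded to 0.0712 to 0.124 CPM, the count scaled to a common library size. The tissue expressed epithelial keratins, with a mean of 3128 CPM for KRT4 and 1963 CPM for KRT5 in the control group. Neuronal transcripts were scarce: RBFOX3, SNAP25, SYT1, ELAVL4 and PRPH had means under 1 CPM in every group, and the most abundant of the 11 neuronal markers in the table, the neurofilament gene NEFL, had 2.94, 1.35 and 32.4 CPM in the control libraries. Of 12 epithelial markers, 3 were higher and 3 lower at TL-3h, with a median log2 fold change of -0.62 against 0.02 over all genes. Their summed level was 6665 to 13055 CPM in cont and 6817 to 10892 CPM at TL-3h. Of 4 goblet cell markers tested 1 was lower at TL-3h, with a median log2 fold change of -0.65. The goblet cell sum was 704 to 1741 CPM in cont and 237 to 1130 CPM at TL-3h. Other cell types also shifted between groups: 9 of 9 neutrophil markers were higher at TL-3h (summed level 4.13 to 86.03 CPM in cont and 1098 to 2899 CPM at TL-3h), and 4 of 8 monocyte and macrophage markers were higher at TL-3d (105 to 826 CPM in cont and 1403 to 2206 CPM at TL-3d). None of 10 fibroblast markers passed against cont (lowest q 0.113), but their summed level was 10510.2 to 61740.2 CPM in cont, 82921 to 102038 CPM at TL-3h, 1138 to 46228 CPM at TL-3d and 8193 to 41249 CPM at TL-14d. Of these 3 lists, only 1 neutrophil marker was listed at 0, in 1 control library. Of 12 endothelial markers 2 were higher at TL-3h, with a summed level of 107 to 645 CPM in cont, 1033 to 1728 CPM at TL-3h and 453 to 773 CPM at TL-3d. Of 11 Schwann cell markers tested 2 were higher and 1 lower at TL-3h, while their summed level was 536 to 837 CPM in cont, 351 to 424 CPM at TL-3h and 269 to 317 CPM at TL-3d. The part of these cell types in the members' values was not tested. In bulk tissue fewer cells of a type and less RNA per cell cannot be told apart. Several libraries stood apart: cont replicate 3, which had the highest fibroblast, endothelial and macrophage marker levels of its group, TL-14d replicate 1, whose expression correlated more closely with the control libraries (mean r = 0.952) than with the other TL-14d libraries (0.864), and TL-14d replicate 2, which correlated more closely with the TL-3d libraries (0.91) than with its own group (0.884). The summed neutrophil level was 2109.8 CPM in TL-14d replicate 2 against 3.87 and 199 CPM in TL-14d replicates 1 and 3. Skeletal muscle markers summed to 529 CPM in cont replicate 2 and 547 CPM in TL-3d replicate 3, against 2.12 to 57.8 CPM in the other libraries, and TL-3d replicate 3 also had the highest fibroblast sum of its group, 46228 CPM against 1138 and 8503 CPM.

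Per transcript length and depth, the conjunctiva held substantial amounts of several guidance receptors and ligands. In unoperated eyes 23 of the 62 members had a mean of at least 10 FPKM (fragments scaled by transcript length and library size), 26 lay between 1 and 10 FPKM, and 13 lay under 1 FPKM. PLXNB2, a receptor of class 4 semaphorins, had the highest control mean of all members at 76.9 ± 24.6 FPKM (SD, n = 3). EPHA1, an epithelial Eph receptor, followed with 50.9 ± 12.7 FPKM, and NTN4, a netrin that binds laminin in basement membranes, with 50.5 ± 9.55 FPKM. The control libraries of these 3 genes overlapped. Among the slits, SLIT3 had 42.8 ± 45.3 FPKM, with an SD larger than the mean, while SLIT1 had only 0.01404 ± 0.00334 FPKM. Among the other families, the highest mean over all groups was that of EFNB2 for the ephrins (27.99 ± 8.58 FPKM in cont), ROBO2 for the ROBO receptors (2.71 ± 0.948 FPKM) and UNC5B for the netrin receptors (1.65 ± 0.668 FPKM). SEMA3C led the semaphorins over all groups, although in unoperated eyes it had 17.8 ± 6.18 FPKM against 35.5 ± 14.2 FPKM for SEMA3B. DCC, the attractive netrin-1 receptor of neurons, was scarce with 0.246 ± 0.283 FPKM.

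**Figure D1:**
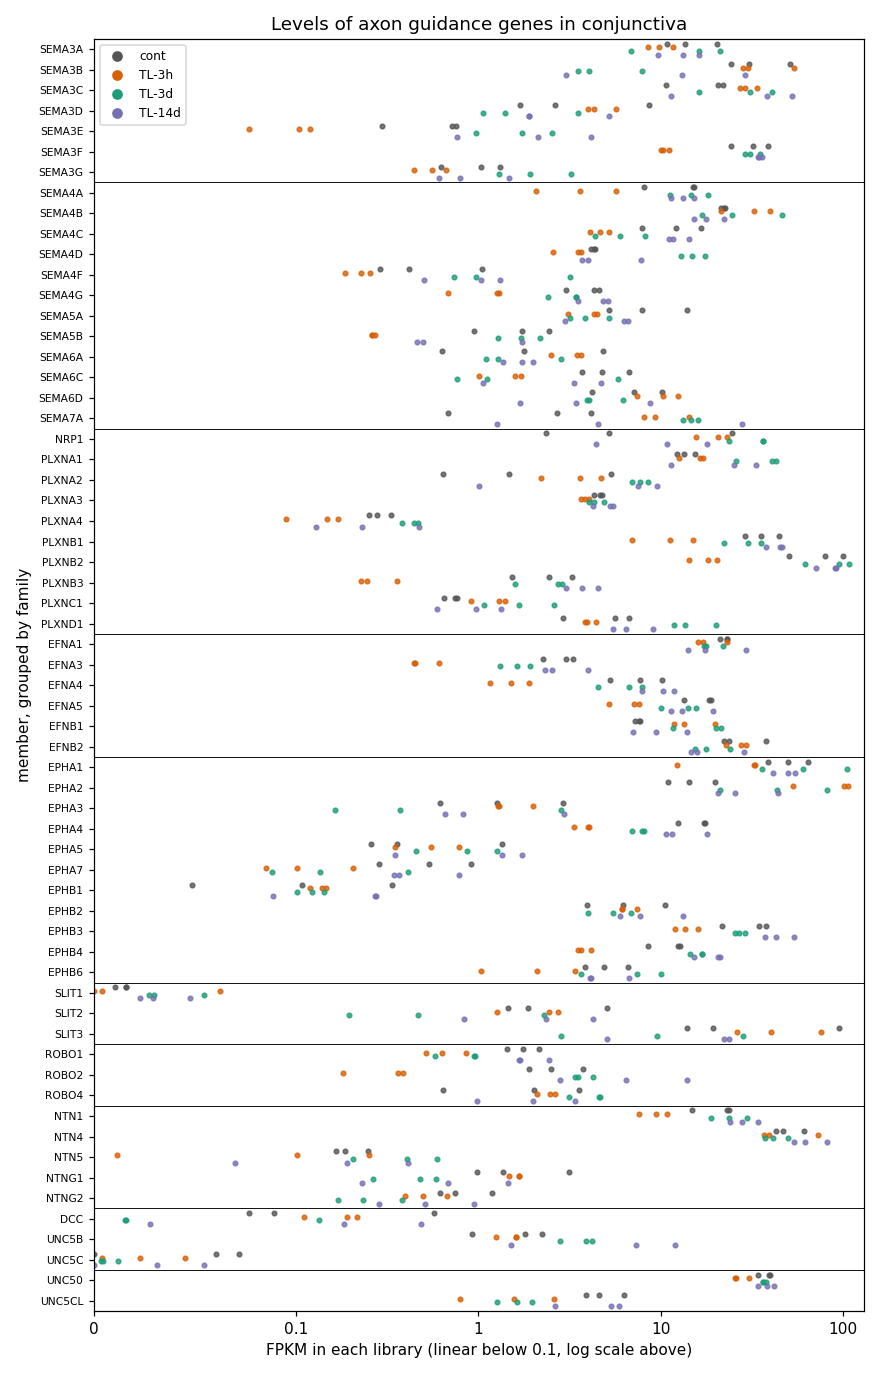
FPKM of the 62 members in each of the 12 libraries, 1 row per member grouped by family, with points coloured by group (x axis linear below 0.1 FPKM and logarithmic above). PLXNB2, EPHA1, NTN4 and SLIT3 reach the right of the plot, and SLIT1 and UNC5C stay under 0.1 FPKM in every library.

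The 7 names left out by the count minimum were EFNB3, EPHA6, EPHA8, NTN3, ROBO3, UNC5A and UNC5D. Just outside it lay UNC5A, with 9, 3 and 2 counts in cont and 10 or more counts in only 2 of the 12 libraries, and UNC5D, with 8, 1 and 37 counts in cont. Just inside it lay SLIT1, with 5, 3 and 5 counts in cont and 8, 13 and 8 counts at TL-3d, and UNC5C, with 0, 20 and 18 counts in cont. Positions in the deposited table refer to OryCun2.0, and 10 of the 62 members, among them EPHA2, NRP1, PLXNB2 and PLXNB3, lie on unplaced sequence there. Only 3 neighbouring pairs of members were less than 100 kb apart, all on the same strand within the pair. EFNA1, EFNA3 and EFNA4 follow each other on chromosome 13 at distances of 38.4 kb and 16.2 kb, and SEMA3F and SEMA3B lie 64.8 kb apart on chromosome 9.

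Tested over the 3 time points together against cont, 30 of the 62 members passed, or 48.4% against 52.4% of all genes. At 3 hours after TL, most guidance genes that changed were lower than in unoperated eyes. Of the 62 members, 22 passed the edgeR quasi-likelihood test with Benjamini-Hochberg adjustment (q at or under 0.05 over all genes), 4 higher and 18 lower. Of all 14835 genes tested, 45.4% passed, 23.2% higher and 22.2% lower, so that the members' share of 35.5% was below that of all genes, with 6.45% of members higher and 29.0% lower. The median log2 fold change was -0.10 over the members and 0.02 over all genes. Groups did not overlap for 29 members, or 46.8%, against 57.3% of all genes. Among ligands 10 of 33 were lower and 2 higher, and among receptors 8 of 27 were lower and 2 higher. With library size as the only scaling, which moved the median of all genes to -0.47, 2 members were higher and 23 lower, and with upper quartile factors 2 were higher and 20 lower. With the replicate block 8 were higher and 18 lower, and with only these 2 groups in the fit 7 and 18. Over all genes called, 51% were higher, against 25% with library size only and 38.2% with upper quartile factors.

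**Figure D2:**
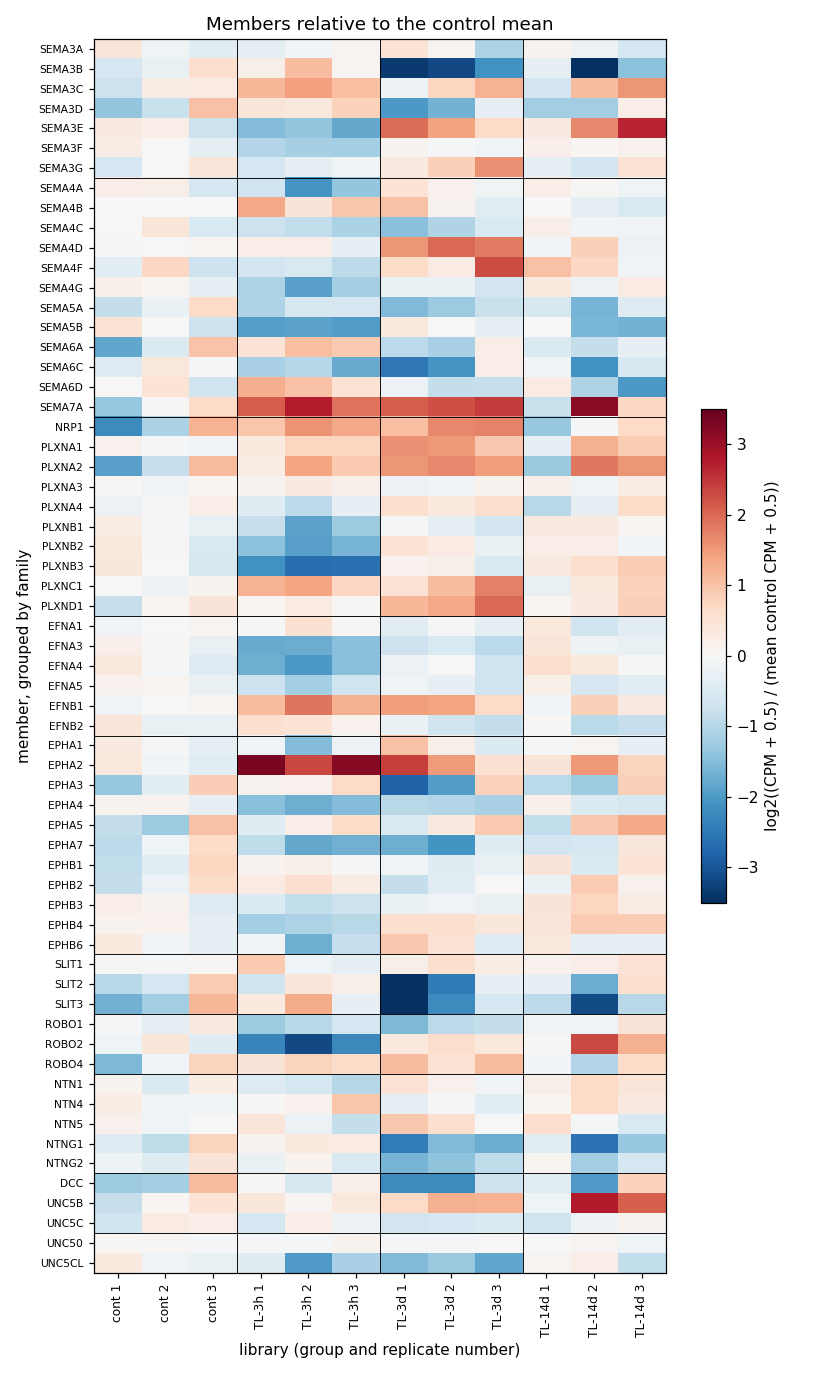
Each cell is log2((CPM + 0.5) / (mean control CPM + 0.5)) of 1 member in 1 library, with members in rows grouped by family and the 12 libraries in columns (red above the control mean, blue below, colours saturated at 3.5). The rows of PLXNB1, PLXNB2, PLXNB3, EFNA3, EFNA4, SEMA3F and ROBO2 have their darkest blue in the 3 TL-3h columns, where EPHA2 is dark red.

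Of the B plexins, transmembrane receptors of class 4 and class 5 semaphorins, 3 of 3 were lower at 3 hours, against 22.2% of all genes. They were not tested as a set. PLXNB1 (chr9:16129201-16149623), the receptor of SEMA4D, measured 335, 265 and 232 CPM in cont, 159.7, 75.8 and 117 CPM at TL-3h, 266, 224 and 174 CPM at TL-3d and 342, 348 and 289.9 CPM at TL-14d. All TL-3h libraries lay below all 9 others, and the log2 fold change was -1.24 ± 0.27 (SE, q = 0.00409). PLXNB2, a receptor of SEMA4C, measured 349.6, 279 and 189.5 CPM in cont, 101, 72.6 and 87.6 CPM at TL-3h, 377, 333 and 226 CPM at TL-3d and 320.5, 320.1 and 255 CPM at TL-14d. Here too the TL-3h libraries lay below all others, with a log2 fold change of -1.65 ± 0.26 (SE, q = 0.000717). PLXNB3, the least abundant of the 3 and a receptor of SEMA5A, measured 21.5, 16.2 and 10.8 CPM in cont, 3.34, 2.16 and 2.23 CPM at TL-3h, 18.1, 18.8 and 10.98 CPM at TL-3d and 20.2, 24.5 and 30.5 CPM at TL-14d. Its fold change was the largest of the group, -2.65 ± 0.33 (SE, q = 0.000211), and no TL-3h library reached any of the others. At TL-3d and TL-14d the log2 fold changes of the 3 B plexins against cont lay between -0.33 and 0.63, and none passed.

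The A plexins bind class 6 semaphorins directly and class 3 semaphorins through neuropilins. None of the 4 passed at 3 hours, against 45.4% of all genes, and their log2 fold changes ran from -0.59 for PLXNA4 to 0.94 for PLXNA2. PLXNC1 (chr4:73487978-73644654), the receptor of SEMA7A, was higher at TL-3h, at 10.6, 11.8 and 7.28 CPM against 4.32, 3.73 and 4.69 CPM in cont, with a log2 fold change of 1.22 ± 0.38 (SE, q = 0.0242). The libraries of the 2 groups did not overlap, but q lay above the threshold with library size or upper quartile scaling and without any 1 of the 3 control libraries or of TL-3h replicates 1 and 2, with q of up to 0.122. Its ligand SEMA7A, a semaphorin tied to the membrane by a lipid anchor, measured 0.593, 2.33 and 3.81 CPM in cont and 11.5, 18.01 and 9.73 CPM at TL-3h. That difference of 2.54 ± 0.96 (SE, q = 0.0538) missed the threshold, although all TL-3h libraries lay above all control libraries. PLXNC1 and SEMA7A are both known from leukocytes, and the neutrophil markers given above rose in the same libraries, whose part in these values was not tested.

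Among the semaphorins, 6 of 19 were lower at TL-3h and 1 was higher, or 36.8% called against 45.4% of all genes. SEMA3F (chr9:17636008-17657796), a secreted repellent that acts through neuropilin-2, measured 133, 109 and 88.6 CPM in cont, 53.4, 49.3 and 48.3 CPM at TL-3h, 119.9, 105 and 103 CPM at TL-3d and 124, 116 and 121 CPM at TL-14d. The 3 libraries at TL-3h lay within a few CPM of each other and below every other library, with a log2 fold change of -1.13 ± 0.15 (SE, q = 0.000239). SEMA3E (chr10:44317219-44565598), which binds PLXND1 without a neuropilin and repels vessels, measured 4.18, 3.93 and 1.73 CPM in cont, 0.807, 0.954 and 0.585 CPM at TL-3h, 14.02, 9.55 and 5.61 CPM at TL-3d and 4.24, 11.7 and 23.3 CPM at TL-14d. It was lower at TL-3h by a log2 fold change of -2.06 ± 0.62 (SE, q = 0.0202), and q rose to 0.0666 without TL-3h replicate 3. The threshold was also missed without cont replicate 1, cont replicate 2, or TL-3h replicate 1. The control and TL-3h libraries did not overlap, and those at TL-3d all lay above them.

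Of the 12 membrane-bound semaphorins, 4 were lower and 1 was higher at 3 hours, or 41.7% called against 45.4% of all genes. SEMA4A (chr13:36693520-36714812), which is known from immune cells and the retina, measured 59.3, 58.5 and 33.5 CPM in cont, 31.1, 11.6 and 19.3 CPM at TL-3h, 70.8, 56.4 and 45.4 CPM at TL-3d and 59.5, 51.6 and 45.02 CPM at TL-14d. The TL-3h libraries stayed below all others, with a log2 fold change of -1.29 ± 0.35 (SE, q = 0.0124). SEMA4G (chr18:49065922-49079027) measured 17.97, 16.8 and 12.7 CPM in cont, 7.23, 3.86 and 6.84 CPM at TL-3h, 13.5, 13.3 and 9.85 CPM at TL-3d and 20.4, 13.8 and 19.5 CPM at TL-14d and changed by -1.40 ± 0.27 (SE, q = 0.00227) at TL-3h, again without overlap. SEMA5B (chr14:96165954-96203686), a semaphorin with thrombospondin repeats, measured 10.8, 7.704 and 4.46 CPM in cont, 1.65, 1.74 and 1.61 CPM at TL-3h, 9.79, 7.58 and 5.92 CPM at TL-3d and 7.8000, 2.201 and 2.08 CPM at TL-14d. Its TL-3h values were the lowest of all libraries at a log2 fold change of -2.20 ± 0.53 (SE, q = 0.007299), while 2 of the 3 TL-14d libraries were only slightly higher. SEMA4C, the ligand of PLXNB2, was lower by -0.91 ± 0.28 (SE, q = 0.0233), and q rose to 0.101 without cont replicate 2, with the threshold missed also without cont replicate 1 or TL-3h replicate 3. SEMA4B was the one semaphorin that was higher, at 0.97 ± 0.33 (SE, q = 0.0371), but q rose to 0.282 with library size only and the threshold was also missed with upper quartile factors and without any of the 3 control libraries or of TL-3h replicates 1 and 3. SEMA3C, the semaphorin with the highest mean FPKM, measured 57.4, 117 and 118 CPM in cont, 219, 263 and 202 CPM at TL-3h, 86.9, 163 and 228 CPM at TL-3d and 61.4, 205 and 288 CPM at TL-14d. All TL-3h libraries lay above all control libraries, yet the log2 fold change of 1.22 ± 0.53 (SE, q = 0.08204) did not pass. It passed with the replicate block, with only these 2 groups in the fit and without TL-14d replicate 1, and q ranged from 0.0147 to 0.253 over the alternatives.

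Of the type A ephrins, which are lipid-anchored ligands of EphA receptors, 3 of 4 were lower at 3 hours, against 22.2% of all genes. They were not tested as a set. EFNA3 (chr13:37580350-37583345) measured 5.06, 4.602 and 3.66 CPM in cont, 0.961, 0.996 and 1.28 CPM at TL-3h, 2.498, 2.93 and 2.08 CPM at TL-3d and 6.12, 3.89 and 3.61 CPM at TL-14d, a log2 fold change of -2.04 ± 0.29 (SE, q = 0.0004104). EFNA4 (chr13:37599542-37603401) measured 13.9, 10.4 and 7.65 CPM in cont, 2.88, 2.28 and 3.55 CPM at TL-3h, 9.09, 10.7 and 6.43 CPM at TL-3d and 16.1, 13.97 and 11.003 CPM at TL-14d, a log2 fold change of -1.87 ± 0.29 (SE, q = 0.000703). In both, the TL-3h libraries lay below every other library. EFNA5 was lower by -0.87 ± 0.24 (SE, q = 0.013000), whereas EFNA1, their neighbour on chromosome 13 and the ligand of EPHA2, measured 31.4, 34.3 and 36.5 CPM in cont and 33.4, 49.4 and 35.2 CPM at TL-3h, a log2 fold change of 0.21 ± 0.26 (SE, q = 0.546).

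Type B ephrins, which span the membrane, went the other way or did not pass. EFNB1 (chrX:47426032-47439463), a ligand of EphB receptors, measured 25.1, 26.2 and 28.6 CPM in cont, 58.3, 99.3 and 64.3 CPM at TL-3h, 74.3, 69.6 and 42.3 CPM at TL-3d and 24.8, 48.1 and 33.3 CPM at TL-14d. All TL-3h libraries and all TL-3d libraries lay above all control libraries, with a log2 fold change of 1.47 ± 0.30 (SE, q = 0.002799) at TL-3h. EFNB2 (chr8:108319374-108341061), the ephrin of arterial endothelium and the ephrin with the highest mean FPKM, measured 134, 84.1 and 83.98 CPM in cont, 148, 142 and 112 CPM at TL-3h, 85.2, 62.4 and 56.6 CPM at TL-3d and 103, 52.1 and 57.2 CPM at TL-14d. Its control and TL-3h libraries overlapped, and the log2 fold change was 0.41 ± 0.29 (SE, q = 0.287).

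Of the 11 Eph receptors, 1 was higher and 3 were lower at 3 hours, or 36.4% called against 45.4% of all genes. EPHA2, an Eph receptor of epithelia, rose more than any other member and measured 65.1, 46.8 and 38.3 CPM in cont, 494, 254 and 462 CPM at TL-3h, 269.7, 142 and 72.5 CPM at TL-3d and 68.4, 145 and 85.6 CPM at TL-14d. All TL-3h libraries stood far above all control libraries, with a log2 fold change of 3.01 ± 0.50 (SE, q = 0.0009704). EPHA4 (chr7:162722604-162881129), which binds ephrins of both types, measured 119.6, 119 and 90.4 CPM in cont, 39.5, 33.2 and 37.98 CPM at TL-3h, 55.99, 54.1 and 49.7 CPM at TL-3d and 125, 78.7 and 74.6 CPM at TL-14d. Its TL-3h libraries were the lowest and its TL-3d libraries lay between them and the control libraries, with a log2 fold change of -1.57 ± 0.20 (SE, q = 0.000235) at TL-3h. EPHB4 (chr6:27025676-27042745), the receptor of ephrin-B2 on venous endothelium, measured 46.1, 47.03 and 33.5 CPM in cont, 18.4, 19.7 and 21.4 CPM at TL-3h, 62.6, 62.2 and 56.1 CPM at TL-3d and 57.2, 78.8 and 78.5 CPM at TL-14d. The TL-3h libraries lay below and the TL-3d and TL-14d libraries above all control libraries, with a log2 fold change of -1.09 ± 0.17 (SE, q = 0.000637) at TL-3h. EPHB3 was lower by -0.70 ± 0.20 (SE, q = 0.0158), and q rose to 0.06601 without cont replicate 1, with the threshold missed also without cont replicate 2. EPHA1 (chr7:8696543-8711410), the Eph receptor with the highest mean FPKM, measured 209, 162 and 134 CPM in cont, 151, 58.001 and 147 CPM at TL-3h, 343, 195 and 122 CPM at TL-3d and 165, 179 and 138 CPM at TL-14d and did not pass (-0.51 (q = 0.352) on the log2 scale at TL-3h).

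Of the 3 slits 0 and of the 3 ROBO receptors 2 passed at 3 hours, against 45.4% of all genes. ROBO2 (chr14:139979739-140600791) measured 24.4, 36.6 and 19.8 CPM in cont, 5.04, 2.57 and 5.195 CPM at TL-3h, 34.4, 41.4 and 34.7 CPM at TL-3d and 27.8, 137 and 64.6 CPM at TL-14d. The TL-3h libraries held less than any other library, with a log2 fold change of -2.65 ± 0.52 (SE, q = 0.00246). ROBO1 (chr14:137720770-138960874) measured 16.6, 13.5 and 21.6 CPM in cont, 6.88, 8.63 and 11.2 CPM at TL-3h, 5.45, 8.84 and 9.45 CPM at TL-3d and 15.9, 15.9 and 23.7 CPM at TL-14d. It was lower by -0.95 ± 0.29 (SE, q = 0.02105) at TL-3h, but q was 0.00174 to 0.0611 over the alternatives and missed the threshold without cont replicate 3 or TL-3h replicate 1. ROBO4, the endothelial member, had log2 fold changes of 0.66 (q = 0.385) at TL-3h and 0.96 (q = 0.253) at TL-3d. The ligand SLIT3 (chr3:50061197-50712067) measured 136, 187 and 982 CPM in cont, 556, 1065 and 355 CPM at TL-3h, 27.7, 91.9 and 285 CPM at TL-3d and 232, 48.9 and 221 CPM at TL-14d. These values differed by several fold within each group, and no comparison of SLIT3 with cont passed, with a log2 fold change of 0.60 (q = 0.6497) at TL-3h.

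Of the 5 netrins 1 and of the 3 DCC and UNC5 receptors 0 passed at 3 hours, against 45.4% of all genes. NTN1, the ligand of DCC and UNC5 receptors, was lower by -0.69 ± 0.24 (SE, q = 0.0394), and q rose to 0.111 without cont replicate 1. The threshold was also missed without cont replicate 3, TL-3h replicates 2 or 3, TL-3d replicate 2 or TL-14d replicate 3, with the replicate block, and with only these 2 groups in the fit. NTN4 (chr4:74877411-75006130) measured 202, 154 and 152 CPM in cont, 173, 187 and 333 CPM at TL-3h, 137, 164 and 128 CPM at TL-3d and 179, 269.9 and 208 CPM at TL-14d. UNC5B, the UNC5 receptor of endothelium, measured 5.62, 10.8 and 14.5 CPM in cont, 13.8, 10.95 and 13.4 CPM at TL-3h, 17.1, 25.3 and 24.7 CPM at TL-3d and 9.21, 72.8 and 45.6 CPM at TL-14d. In neither did the TL-3h libraries separate from the control libraries, with log2 fold changes of 0.45 (q = 0.192) and 0.30 (q = 0.707). DCC and UNC5C stayed at or under 2.56 CPM in group means and did not pass.

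**Figure D3:**
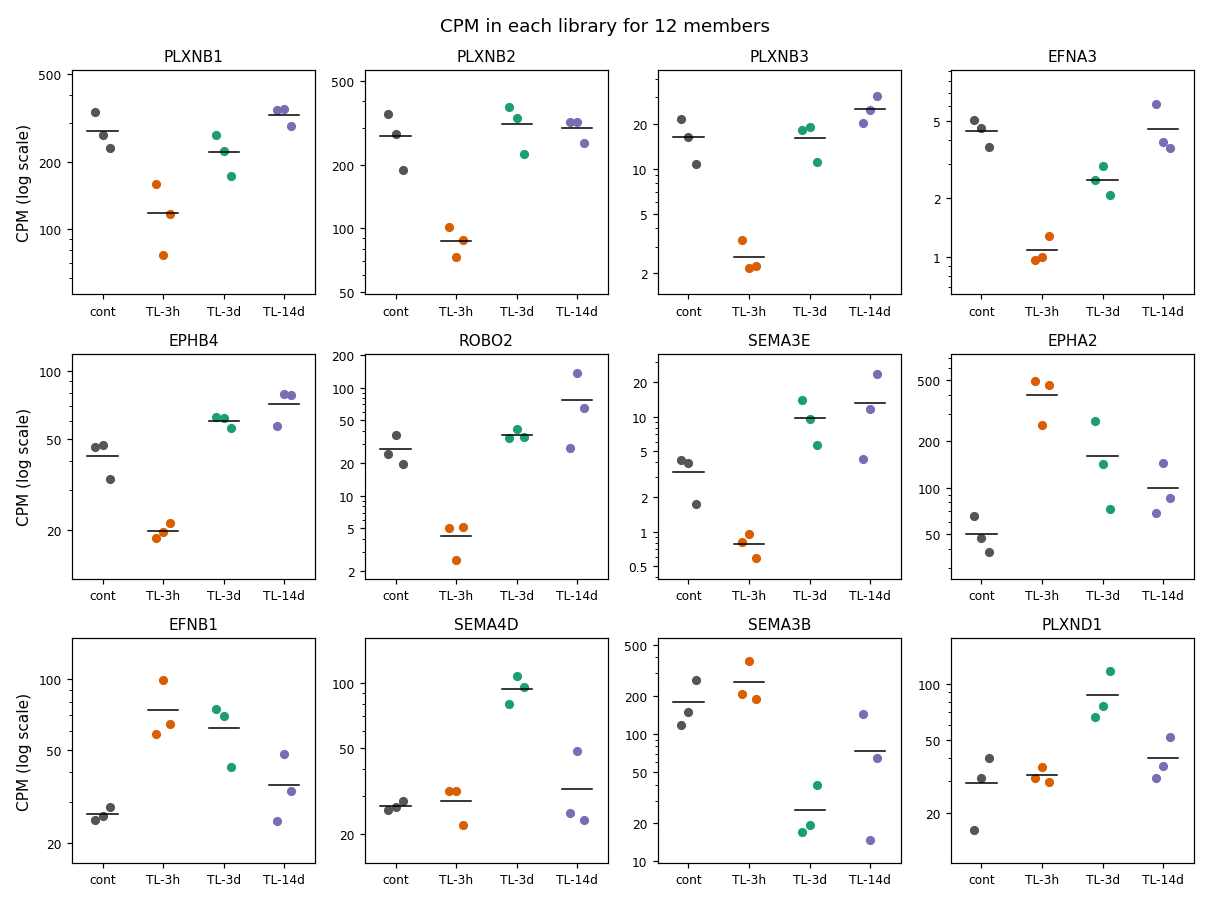
CPM of 12 members in each library on a log scale, 1 panel per member, with the group on the x axis and a line at each group mean of 3 libraries. PLXNB1 to SEMA3E have their lowest values at TL-3h, EPHA2 and EFNB1 are raised there, and SEMA4D, SEMA3B and PLXND1 depart from cont at TL-3d.

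At 3 days after TL, fewer guidance genes differed from unoperated eyes, and as many were higher as lower. Of the 62 members 12 passed, 6 in each direction, or 19.4% against 17.6% of all genes tested, of which 10.6% were higher and 7.0% lower. Groups did not overlap for 20 members, or 32.3%, against 45.5% of all genes, and the median log2 fold change was -0.04 over the members and 0.00 over all genes. With upper quartile factors 5 were higher and 8 lower, and with the replicate block 8 were higher and 5 lower. The count was sensitive to single libraries. It fell to 1 of 62 without cont replicate 1, cont replicate 2 or TL-3d replicate 2 and to 3 without TL-3d replicate 1, and it was 18 without TL-14d replicate 1. The share of all genes called moved the same way. It was 3.25% without cont replicate 1 and 2.46% without cont replicate 2. Without TL-3d replicate 1 it was 2.97%, without TL-3d replicate 2 2.37%, and without TL-14d replicate 1 25%. Only the call of SEMA4D held under each of the 21 alternatives.

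SEMA4D (chr1:78351777-78439706), the semaphorin of lymphocytes that binds PLXNB1, was the ligand with the largest increase past the threshold at 3 days and measured 25.7, 26.7 and 28.3 CPM in cont, 31.7, 31.6 and 21.99 CPM at TL-3h, 79.6, 108 and 95.3 CPM at TL-3d and 24.9, 48.3 and 23.2 CPM at TL-14d. The 3 libraries at TL-3d lay above all 9 others, with a log2 fold change of 1.81 ± 0.28 (SE, q = 0.00971) against cont. Its receptor PLXNB1 stood at -0.33 ± 0.27 (SE, q = 0.401) in the same comparison. Of the markers of T cells, where SEMA4D is abundant, 0 of 8 passed, against 17.6% of all genes. Their summed level was 17.6 to 43.7 CPM in cont and 11.6 to 31.1 CPM at TL-3d. Of 7 B and plasma cell markers 1 was higher, with a summed level of 334 to 2615 CPM in cont and 475 to 2035 CPM at TL-3d. Of the monocyte and macrophage markers, given above, 4 of 8 were higher in the same comparison. The part of these cell types in the SEMA4D value was not tested. EFNB1 remained raised at 1.22 ± 0.30 (SE, q = 0.02401), and q rose to 0.0835 without TL-3d replicate 1, with the threshold missed also without cont replicate 1, cont replicate 2 or TL-3d replicate 2.

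Of the 27 receptors, 4 were higher and 2 lower at TL-3d, or 22.2% called against 17.6% of all genes. PLXND1 (chr9:10971737-11009001), the receptor of SEMA3E and known from endothelium and macrophages, measured 16.3, 31.2 and 39.8 CPM in cont, 31.1, 35.6 and 29.7 CPM at TL-3h, 66.2, 75.5 and 117 CPM at TL-3d and 30.9, 36.1 and 51.7 CPM at TL-14d. All TL-3d libraries lay above all others, with a log2 fold change of 1.57 ± 0.34 (SE, q = 0.0174), and q rose to 0.0599 without cont replicate 2. The same was seen without cont replicate 1 or TL-3d replicate 2. PLXNA1 (chr9:6267987-6307822), a coreceptor of neuropilins, measured 86.6, 74.8 and 72.9 CPM in cont, 99.9, 132 and 131 CPM at TL-3h, 239.96, 225 and 149 CPM at TL-3d and 63.7, 185 and 144 CPM at TL-14d. Every TL-3d library exceeded every control library, at a log2 fold change of 1.39 ± 0.34 (SE, q = 0.02396), but q rose to 0.0806 without cont replicate 2 and the threshold was missed without any 1 of the control libraries or of TL-3d replicates 1 and 2. PLXNC1 measured 6.22, 9.61 and 15.6 CPM at TL-3d and 3.46, 5.57 and 7.88 CPM at TL-14d, with a log2 fold change of 1.30 ± 0.38 (SE, q = 0.0425) at TL-3d, and q rose to 0.127 without cont replicate 2. EPHA2 was still higher by 1.69 ± 0.48 (SE, q = 0.0389), where the difference from TL-3h was -1.32 (q = 0.0504) on the log2 scale, and q rose to 0.142 without TL-3d replicate 1. Both calls were lost with only these 2 groups in the fit, and that of PLXNC1 also with upper quartile factors and with limma-trend. The call of PLXNC1 was lost without any 1 of the 9 libraries of cont, TL-3h and TL-3d, and that of EPHA2 without any 1 of the 3 control libraries, TL-3h replicates 1 and 3, TL-3d replicates 1 and 2 or TL-14d replicate 3.

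The class 3 semaphorin SEMA3B (chr9:17722593-17733640), a secreted ligand of neuropilins known as a tumor suppressor, had the largest decrease at 3 days. It measured 118, 148 and 265 CPM in cont, 206, 379 and 189 CPM at TL-3h, 17.1, 19.5 and 40.04 CPM at TL-3d and 143, 14.6 and 64.8 CPM at TL-14d. The TL-3d libraries lay below every control and TL-3h library, with a log2 fold change of -2.80 ± 0.72 (SE, q = 0.0294) against cont, while the TL-14d libraries were spread from the TL-3d level up to the control level. Leaving out any 1 control library, TL-3d replicate 1 or TL-3d replicate 2 took q above the threshold, at most to 0.108. Its neighbour SEMA3F stood at -0.01 (q = 0.967) on the log2 scale at TL-3d. SEMA4C was lower by -0.98 ± 0.28 (SE, q = 0.0402), and q rose to 0.135 without cont replicate 2. NTNG2, a lipid-anchored netrin-G that binds a leucine-rich repeat protein of synapses, measured 2.302, 1.88 and 3.86 CPM in cont, 2.15, 2.99 and 1.68 CPM at TL-3h, 0.525, 0.708 and 1.22 CPM at TL-3d and 2.92, 0.869 and 1.595 CPM at TL-14d and was lower by -1.71 ± 0.52 (SE, q = 0.0465). For NTNG2 q rose to 0.1497 without TL-3d replicate 1. Both of these calls were lost without any 1 of cont replicates 1 and 2, the 3 TL-3h libraries, TL-3d replicates 1 and 2 or TL-14d replicate 3, and that of NTNG2 also without cont replicate 3. With the replicate block both were lost as well, that of SEMA4C also with only these 2 groups in the fit and that of NTNG2 without the filter on low counts.

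Receptors that were lower at 3 days were EPHA4 at -1.04 ± 0.20 (SE, q = 0.0138) and ROBO1 at -1.13 ± 0.29 (SE, q = 0.0288). Without cont replicate 1, cont replicate 2 or TL-3d replicate 2 both missed the threshold, ROBO1 also without cont replicate 3 or TL-3d replicate 1, with q of up to 0.0552 for EPHA4 and up to 0.0951 for ROBO1. UNC5CL (chr12:30771362-30785174), which shares only the name pattern with the guidance receptors, measured 20.5, 14.8 and 13.4 CPM in cont, 11.9, 3.73 and 7.06 CPM at TL-3h, 5.27, 6.31 and 4.27 CPM at TL-3d and 17.4, 19.1 and 8.76 CPM at TL-14d. Its TL-3d libraries lay below all control libraries, with a log2 fold change of -1.62 ± 0.42 (SE, q = 0.02998), and q rose to 0.0968 without cont replicate 1. That call was also lost without cont replicate 2 or any 1 of the 3 TL-3d libraries. UNC50, the other such name, stayed between 38.5 and 39.8 CPM in group means.

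**Figure D4:**
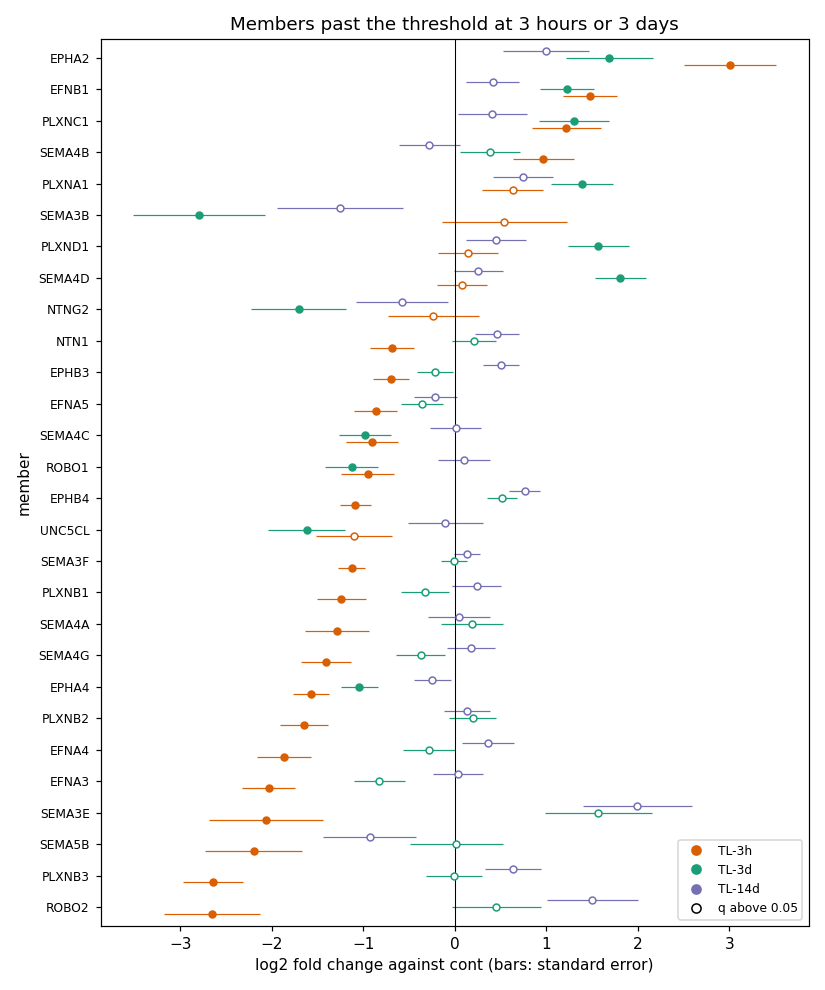
Log2 fold change against cont with its standard error at TL-3h, TL-3d and TL-14d for the 28 members past the threshold at 3 hours or 3 days, ordered by the value at 3 hours. Filled points passed q at or under 0.05, open points did not, and every point of TL-14d is open.

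At 14 days after TL, 0 of the 62 members passed the edgeR test, as did 0% of all genes tested. At an unadjusted p under 0.05 in the edgeR test there were 7 of the 62 members and 1538 of the 14835 genes tested. DESeq2 called 3 members (2.47% of all genes), and limma-trend called 0. Groups did not overlap for 5 members, or 8.06%, against 11.1% of all genes. Without TL-14d replicate 1, the library that resembled the controls, 6 members passed (4.74% of all genes), namely SEMA3E, UNC5B, EPHB4, PLXNA1 and ROBO2 higher and SEMA5B lower. DESeq2 with all libraries called SEMA3E, UNC5B and EPHB4, all higher. UNC5B differed widely within the group, highest in TL-14d replicate 2, with 5.62, 10.8 and 14.5 CPM in cont and 9.21, 72.8 and 45.6 CPM at TL-14d, and its log2 fold change over all 3 libraries was 2.05 ± 0.60 (SE, q = 0.348). ROBO2 was also highest in that library, with 27.8, 137 and 64.6 CPM at TL-14d and 1.5 ± 0.50 (SE, q = 0.388) on the log2 scale. EPHB4 lay above all control libraries in each TL-14d library, with a log2 fold change of 0.76 ± 0.17 (SE, q = 0.346).

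The difference between 3 days and 3 hours was tested in the same fit. Of the 62 members 22 passed, 17 higher and 5 lower at TL-3d than at TL-3h, against 37.3% of all genes (18.4% higher and 19.0% lower). Groups did not overlap for 37 members, or 59.7%, against 54.7% of all genes. With library size as the only scaling 25 were higher and 2 lower, with upper quartile factors 23 and 2, and with the replicate block 20 and 11. Over all genes called, the share that was higher moved the same way, from 49.2% to 80.5% with library size only and 61.7% with upper quartile factors, and the median of all genes moved to 0.43 and 0.12. All 6 receptors that passed were higher, namely PLXNB1, PLXNB2, PLXNB3, PLXND1, EPHB4 and ROBO2. Of the 33 ligands 11 were higher and 5 lower. SEMA3E went from its lowest group mean to 14.02, 9.55 and 5.61 CPM, a log2 difference of 3.63 ± 0.65 (SE, q = 0.00188), and SEMA3B from its highest group mean to 17.1, 19.5 and 40.04 CPM, a log2 difference of -3.34 ± 0.74 (SE, q = 0.005996). Further ligands that were lower at TL-3d than at TL-3h were EFNB2, SEMA6D, NTNG1 and NTNG2, between -2.34 and -0.97 on the log2 scale. The calls of EFNB2, SEMA6D and NTNG2 were lost with library size or upper quartile scaling, with q of up to 0.219, 0.124 and 0.146 over all alternatives, and that of NTNG1 without TL-3d replicate 1 (q = 0.0665). Of the increases, those of PLXNB1, SEMA3G, SEMA4F and NTN1 were lost when single TL-3h or TL-3d libraries were left out, with q of up to 0.0783, 0.104, 0.0724 and 0.0617.

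From 3 hours to 14 days the members that differed were 23, 18 of them higher and 5 lower at TL-14d, against 45.3% of all genes (22.9% higher and 22.3% lower). With library size as the only scaling 24 were higher and 1 lower, and with the replicate block 17 and 8. The share of all called genes that was higher moved from 50.7% to 77.6% with library size only. Groups did not overlap for 31 members, or 50%, against 52.8% of all genes. ROBO2 had the largest difference at 4.16 ± 0.56 (SE, q = 0.0003097), followed by SEMA3E at 4.06 ± 0.66 (SE, q = 0.000888) and PLXNB3 at 3.28 ± 0.34 (SE, q = 8.92e-05). None of these 3 was lost in any of the 21 alternatives. The call of UNC5B was lost with limma-trend, with the replicate block, with only these 2 groups in the fit and when any 1 of 7 libraries was left out (q up to 0.150), including TL-14d replicates 2 and 3, the 3 TL-3h libraries, cont replicate 2 and TL-3d replicate 2. The call of EFNB2 was lost with library size or upper quartile scaling, with only these 2 groups and without TL-3h replicates 1 or 2 or TL-14d replicates 2 or 3 (q up to 0.266), and that of EFNB1 with library size only, with only these 2 groups and without TL-3h replicate 2 (q up to 0.129). Calls of EFNA5, SEMA4B, SEMA4C, SEMA6D and ROBO1 were also lost in 1 to 9 alternatives each, with q of up to 0.164, 0.0889, 0.0668, 0.103 and 0.0547. Between 3 days and 14 days only SEMA4D passed, lower at TL-14d by -1.55 ± 0.27 (SE, q = 0.0291), against 2.24% of all genes in either direction and 1.59% lower. That call was lost with only these 2 groups in the fit and without cont replicate 2, any 1 of the 3 TL-3d libraries, or TL-14d replicates 1 or 3, and q rose to 0.114 without TL-3d replicate 2. Since these comparisons share the TL-3h, TL-3d or TL-14d libraries with each other and with the comparisons above, they are not separate evidence.

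Ligands and receptors known to bind each other were set side by side. For SEMA3E and PLXND1 the log2 fold changes against cont were -2.06 and 0.14 at TL-3h and 1.57 and 1.57 at TL-3d, where SEMA3E had q = 0.0856. For SEMA4D and PLXNB1 they were 0.08 and -1.24 at TL-3h and 1.81 and -0.33 at TL-3d, with the receptor lower at TL-3h and the ligand higher at TL-3d. For EFNB2 and EPHB4 they were 0.41 and -1.09 at TL-3h and -0.57 and 0.51 at TL-3d, of which only the value of EPHB4 at TL-3h passed (EFNB2 q = 0.287 and 0.189, EPHB4 q = 0.0572 at TL-3d). For EFNA1 and EPHA2 they were 0.21 and 3.01 at TL-3h and -0.27 and 1.69 at TL-3d, with the receptor past the threshold at both times and the ligand at neither.

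Several members varied widely between the control eyes. DCC, NRP1, SLIT3, PLXNA2, EPHB1, EPHA5, SEMA6A and SEMA3D had an SD of 90.9% to 117.9% of the control mean, and each was highest in cont replicate 3. NRP1, the coreceptor of SEMA3A and of vascular endothelial growth factor, measured 12.4, 27.2 and 139 CPM in cont, 117, 176 and 150.3 CPM at TL-3h, 125, 191 and 200.2 CPM at TL-3d and 23.6, 57.3 and 96.7 CPM at TL-14d. With all libraries its log2 fold change was 1.31 ± 0.77 (SE, q = 0.192) at TL-3h and 1.53 ± 0.77 (SE, q = 0.179) at TL-3d. Without cont replicate 3, the library with its highest control value, the q of NRP1 were 0.00435 and 0.0204. Over all alternatives they ranged from 0.00435 to 0.422 and from 0.0204 to 0.383. For DCC at TL-3d q went from 0.213 to 0.751 without that library. SEMA3D measured 12.96, 20.1 and 70.5 CPM and SLIT2 10.3, 13.2 and 38.3 CPM in the control libraries, also highest in replicate 3. At TL-3d these 2 ligands and SLIT3 were highest in replicate 3, with 8.17, 10.7 and 28.1 CPM for SEMA3D, 1.37, 3.26 and 16.9 CPM for SLIT2 and 27.7, 91.9 and 285 CPM for SLIT3. The summed fibroblast, endothelial and macrophage markers were highest in replicate 3 of both groups, with fibroblast sums from 10510.2 to 61740.2 CPM in cont and from 1138 to 46228 CPM at TL-3d. At TL-3h the fibroblast sum was highest in replicate 2, as were SLIT3 and SLIT2 (12.6, 28.005 and 23.9 CPM), while SEMA3D was highest in replicate 3 (46.9, 44.4 and 60.2 CPM). At TL-14d the fibroblast sum was highest in replicate 3, as were SEMA3D (14.6, 14.5 and 40.6 CPM) and SLIT2 (16.6, 5.87 and 30.6 CPM), while SLIT3 had 232, 48.9 and 221 CPM. The part of these cell types in the values was not tested.

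At the level of annotated transcripts, 127 of 156 transcripts of the members could be tested. At TL-3h 26 of them passed, 5 higher and 21 lower, against 28.3% of all transcripts tested. At TL-3d 7 passed, 4 higher and 3 lower, against 5.13%, and at TL-14d 0 passed, as in all transcripts. Of the 13 transcripts of ROBO2, not all of which could be tested, 5 were lower at TL-3h. These had control means of 1.60 to 3.60 CPM, and the most abundant ROBO2 transcript, at 17.7 CPM in cont, did not pass (q = 0.0698). Of the 7 transcripts of SEMA3B, 2 were lower at TL-3d. A single transcript each of SEMA4B and SEMA6D was higher at TL-3h, while SEMA6D as a gene did not pass (0.98 (q = 0.153) on the log2 scale). Those transcripts had control means of 0.185 CPM for SEMA4B and 0 CPM for SEMA6D. The most abundant SEMA4B transcript, at 98.2 CPM in cont, did not pass (q = 0.0811). How the counting divided reads among transcripts of 1 gene is not given in the sources used here.

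Genes around the members in the pathway were taken from lists of other guidance receptors and cofactors and of cytoskeletal and kinase effectors. Of 21 other receptors and cofactors tested, 4 were higher and 5 lower at TL-3h, and 4 were higher and 1 lower at TL-3d. NRP2, the coreceptor of SEMA3F, was higher at both times (2.73 (q = 0.0353) and 3.16 (q = 0.0459) on the log2 scale), and the adhesion molecules L1CAM and DSCAML1 were higher at TL-3d (3.32 (q = 0.0177) and 2.79 (q = 0.0222)). Of 42 effectors, 7 were higher and 10 lower at TL-3h, and 5 were higher and 2 lower at TL-3d. These counts stand against 45.4% of all genes at TL-3h and 17.6% at TL-3d, and nothing particular to the lists is read from them. DPYSL4, of the collapsin response mediator family downstream of semaphorin 3A, had 0.0237, 0 and 0 CPM in cont and 3.697, 2.62 and 0.427 CPM at TL-3d (q = 0.0201), so that the control libraries were under the floor of 3 counts. SH2D3C, an adaptor of Eph receptors, was higher at both times (2.22 (q = 0.00246) and 1.49 (q = 0.0405) on the log2 scale). At TL-14d no gene of these lists passed.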

How the data were processed

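RNA of 12 conjunctiva libraries, prepared with a stranded mRNA kit, was sequenced, and the authors mapped the reads to OryCun2.0 with STAR 2.6.0c, as named in the submitters' processing notes, and summarised them in GeneData Profiler Genome. The authors deposited expected counts per gene and transcript, of which 23.4% of the gene values were not whole, and which were not divided by library size. FPKM values, which the authors had divided by transcript length and depth, were also deposited and served here only to compare levels between genes. Whether the counting used strand, and how reads with several placements were shared, is not given in the sources used here, and 5 members (SEMA3D, SEMA3G, EPHB6, PLXNA4 and ROBO1) overlap a gene on the opposite strand, so that reads of either could enter their counts.

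Groups came from the sample labels, and no pair of libraries within a group agreed within sampling noise. The plan assumed counts, and the expected counts were rounded to whole numbers. The filter filterByExpr (minimum count 10, minimum total 15) kept 14835 of 20566 genes. One quasi-likelihood fit in edgeR 4.0.16 (R 4.3.3, limma 3.58.1) held all 12 libraries with TMM factors and no covariates, and q is the Benjamini-Hochberg value over all genes tested, with a threshold of 0.05. TMM factors were 0.768 to 0.783 at TL-3h and 1.03 to 1.13 elsewhere. Fold changes carry a prior count of 0.125, standard errors come from the fold change and its F value, and CPM use TMM-adjusted library sizes. Without molecular identifiers, floors hold counting error alone.

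Members past the threshold against cont with an absolute log2 fold change of at least 1 and a mean of at least 1 CPM, and the member of each family with the highest mean FPKM, were given in every library. Other members could be named with fold change and q. Of the other lists, at most the 3 largest changes or the most abundant marker were named (a few results are not reported here), beside defining neuronal markers chosen after their values were seen. NRP1, SEMA7A, EFNA1, SEMA3D and SLIT2, also given by library, were chosen the same way. Members and lists were chosen with earlier results of these data known. Alternatives were other scaling (DESeq2 1.42.0 size factors, upper quartile, library size only), other filters, the DESeq2 and limma-trend tests, a replicate block, only the groups compared, and each library left out.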

Additional observations from a re-analysis of the deposited data

Results flagged for a closer look

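The time points were compared with each other in the same edgeR fit, and for the members given by library the effect of TL differed between times in 35 cases, each past q at or under 0.05. The comparisons share libraries with each other and with those against cont, so a low or high TL-3h value enters several of them.

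Between TL-3d and TL-3h, the B plexins were higher at TL-3d by 0.91 (PLXNB1), 1.84 (PLXNB2) and 2.63 (PLXNB3) on the log2 scale, PLXND1 by 1.43, ROBO2 by 3.11 and EPHB4 by 1.60. Among ligands, the difference was 3.63 for SEMA3E, 1.12 for SEMA3F, 1.48 for SEMA4A, 1.73 for SEMA4D, 1.03 for SEMA4G, 2.22 for SEMA5B, 1.21 for EFNA3 and 1.59 for EFNA4. Lower at TL-3d were SEMA3B at -3.34, NTNG2 at -1.47 and EFNB2 at -0.97.

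Between TL-14d and TL-3h, receptors differed by 1.48 (PLXNB1), 1.78 (PLXNB2), 3.28 (PLXNB3), 1.06 (ROBO1), 4.16 (ROBO2), 1.33 (EPHA4), 1.85 (EPHB4) and 1.74 (UNC5B), all higher at TL-14d, and EPHA2 was lower at -2.02. Ligands differed by 4.06 (SEMA3E), 1.26 (SEMA3F), 1.33 (SEMA4A), 1.58 (SEMA4G), 2.07 (EFNA3) and 2.23 (EFNA4), and EFNB1 at -1.06 and EFNB2 at -0.92 were lower at TL-14d. Between TL-14d and TL-3d, SEMA4D was lower at -1.55. The differences of UNC5B, EFNB1, EFNB2, ROBO1 (TL-14d against TL-3h), EFNB2, NTNG2, PLXNB1 (TL-3d against TL-3h) and SEMA4D (TL-14d against TL-3d) missed the threshold in some of the alternatives, as given in the report.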

How the results depend on the processing

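Of 22 calls at TL-3h, 15 held under all 21 alternatives and 19 held under the 9 that kept every library. Of 12 calls at TL-3d, 1 and 8 did. Of 22 calls between TL-3d and TL-3h, 14 and 19 did, and of 23 between TL-14d and TL-3h, 15 and 17 did. No called value of a member changed sign in any alternative. Leaving out 1 library in turn gave 16 to 25 calls at TL-3h, 1 to 18 at TL-3d, 0 to 6 at TL-14d, 21 to 33 for the 3 time points together (30 with all libraries, against 52.4% of all genes), 16 to 26 between TL-3d and TL-3h, 0 to 2 between TL-14d and TL-3d, and 18 to 24 between TL-14d and TL-3h. Over all genes these fits called 34.9% to 48.1% at TL-3h, 2.37% to 25% at TL-3d and 0% to 4.74% at TL-14d. They called 26.1% to 41.2% between TL-3d and TL-3h, 0% to 3.87% between TL-14d and TL-3d, and 36.2% to 45% between TL-14d and TL-3h. The extremes at TL-3d and TL-14d came with the libraries named beside those results, and the cause was not tested. The DESeq2 test gave 18 calls at TL-3d, 3 at TL-14d and 8 between TL-14d and TL-3d, where limma-trend gave 2, the replicate block 2 and a fit of only the 2 groups 0. Whether equal replicate numbers mark the same animal is not given, and the libraries were treated as unpaired: of 18 same-numbered pairs 8 had deviations correlated over 0.1 (r from -0.17 to 0.50), and 7 of 12 libraries correlated best with their own number. With the replicate block there were 26 calls at TL-3h, 13 at TL-3d, 0 at TL-14d, 33 for the 3 times together, 31 between TL-3d and TL-3h and 25 between TL-14d and TL-3h. Of all genes the block called 46.8% at TL-3h, 18.3% at TL-3d and 0% at TL-14d. It called 39.3% between TL-3d and TL-3h and 46.1% between TL-14d and TL-3h. With 3 libraries a group, the scarce SLIT1, UNC5C and NTN5 had standard errors of 0.84 to 1.46 against cont on the log2 scale, at which much smaller differences were not detectable.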
